A study of Danio rerio with 24 samples.

Results

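The comparison described here is that of rotenone at 37.5 nM against 3.75 nM in the livers of 1-year zebrafish whose numbers in the sample titles were 181 or lower. It took in 8 of the 24 sequenced fish: fish 163, 165, 166 and 167 at 3.75 nM and fish 173, 174, 175 and 177 at 37.5 nM (n = 4 each). Both groups were 1-year males of the AB JxTu strain without a transgene, with 1 liver RNA library per fish. The sign of each change is 37.5 nM minus 3.75 nM. The other fish were 10 one-year fish of the same strain numbered 189 to 202, 5 at each concentration, and 6 three-year fish at 37.5 nM, which carried Tg(flk:mCherry). The labels name no untreated fish and no length of exposure, so no value has an untreated background beside it. The 4 fish at 3.75 nM were deposited in another count table than the 4 fish at 37.5 nM, and the numbers of the groups do not interleave. Dose and any other difference between those sets cannot be told apart, and the p-values measure spread between fish within a set.

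Rotenone blocks complex I of the mitochondrial respiratory chain, where electrons from NADH enter. With the chain blocked, less ATP is made from fuels and less NADH is turned back into NAD+. Cells are then known to lean on glycolysis and to remove damaged mitochondria. The liver is the organ that stores glucose as glycogen and fat in the fed state and releases fuel in fasting. Its genes for these tasks answer to insulin, glucagon, glucocorticoid and the clock as well as to toxicants.

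Total counts ran from 24644663 to 31614079 at 3.75 nM and from 29034300 to 36688598 at 37.5 nM. CPM are counts scaled by the total of each library and by a normalization factor, which ran from 0.873 (fish 173) to 1.087 (fish 166). The first principal component of log2 CPM held 44.2% of the variance and separated the doses. Fish at 37.5 nM lay between 53.4 and 62.3 on it, and fish at 3.75 nM between −87.4 and −32.6, with fish 166 the farthest out. On the second component, with 14.6% of the variance, fish 163 stood at 68.8 and fish 166 at −56.2, so the 3.75 nM fish were also the more spread of the groups. Pearson correlations of log2 CPM across the tested genes ran from 0.939 to 0.959 within the 37.5 nM fish, from 0.915 to 0.952 within the 3.75 nM fish and from 0.853 to 0.924 between them. Hepatocyte markers summed to 135905 to 222980 CPM at 3.75 nM and 173304 to 225088 CPM at 37.5 nM. Label and markers thus name the same tissue. Fish 166 stood apart in some markers of other tissues. Its skeletal muscle markers summed to 50.1 CPM against 2.19 CPM or less in the other 7. FABP2 (ENSDARG00000006427), a fatty acid binding protein of gut cells, stood at 1030.3 CPM there against at most 34 CPM. The summed intestine markers did not set this fish apart, at 32606 CPM within 22924 to 48351 CPM at 3.75 nM. At 37.5 nM they ran from 36385 to 50730 CPM. The total of called genes is also given without this fish.

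**Figure D1:**
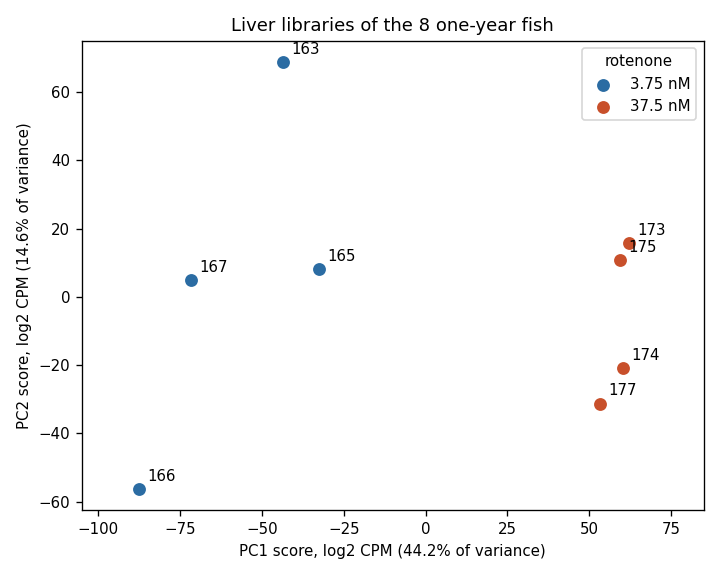
Each point is 1 fish, placed by its scores on the first and second principal components of log2 CPM over the 15199 tested genes, with the share of variance on each axis and the dose by colour. The 37.5 nM fish lie close together at 53.4 to 62.3 on the first component, and the 3.75 nM fish spread from −87.4 to −32.6.

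Of 15199 genes tested with the quasi-likelihood F test of edgeR, 5277 passed an adjusted p of 0.05 (34.7%). They split into 2622 genes higher at 37.5 nM (17.3%) and 2655 genes lower (17.5%), with a median log2 change of 0.03 over all tested genes. Among them, 1436 rose and 1272 fell by at least 1 on the log2 scale. Without fish 166 the counts were 2255 higher and 2373 lower. DESeq2 and limma voom also called 5059 of the 5277, each with the same sign in all 3 tests. In 5598 genes (36.8%) the CPM of the groups did not overlap, with the 37.5 nM fish above in 2851 and below in 2747. Counts for a list of genes are to be read against these shares and against the median of all genes. Where leaving out 1 fish, or another scaling, filter, test or fit, moved a list's count by over 1.5 times, the range over these alternatives stands beside it. For counts of at least 5 the fish concerned are named. Whether fewer cells of a type or less RNA per cell lay behind a difference cannot be told apart in bulk liver RNA.

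A hexokinase, a glucose transporter and a lactate dehydrogenase subunit fell at 37.5 nM, while most genes of glycolysis missed the threshold. HKDC1 (ENSDARG00000038703) is a member of the hexokinase family, whose enzymes phosphorylate glucose and so hold it in the cell. It stood at 148, 846, 609 and 821 CPM in fish 163, 165, 166 and 167 and at 11, 8.43, 8.42 and 17.5 CPM in fish 173, 174, 175 and 177, and values of other genes follow this order of fish. The 37.5 nM fish lay close together, and the 3.75 nM fish differed among themselves, with fish 165 the highest and fish 163 the lowest. The log2 change was −5.74 ± 0.62 (SE), adjusted p = 0.000408. SLC2A1 (ENSDARG00000007412, a symbol on 2 gene rows), a glucose transporter, fell by 1.89 ± 0.17 (adjusted p = 0.0002) from 11.7 ± 2.31 to 3.15 ± 0.154 CPM (mean ± SD, n = 4). LDHB (ENSDARG00000019644), a lactate dehydrogenase subunit, fell by 2.15 ± 0.49 (adjusted p = 0.0103). In the glycolysis list, 3 of 37 tested genes rose, 10 fell and 24 missed the threshold (median log2 change −0.65; 1 to 3 rose over the alternatives).

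Several named genes of insulin signalling and of the fasting response rose at 37.5 nM, while PCK1 did not pass. IGFBP1 (ENSDARG00000099351), a secreted protein that binds insulin-like growth factors and is held down by insulin in mammals, stood at 6.83, 12.1, 4.38 and 5.67 CPM at 3.75 nM and at 82.7, 95.1, 48 and 239 CPM at 37.5 nM. All 4 fish at 37.5 nM lay above the others, fish 177 the highest, and the log2 change was 4.0 ± 0.58 (adjusted p = 0.00137). Its paralog igfbp1b (ENSDARG00000038666) rose by 4.55 ± 0.68 (adjusted p = 0.00155), and reads shared between the paralogs could be split by the counting. INSR, the insulin receptor, was carried by a pair of gene rows. ENSDARG00000071524 rose by 1.38 ± 0.18 (adjusted p = 0.000852) and ENSDARG00000011948 by 1.78 ± 0.24 (adjusted p = 0.000981). SIK1 (ENSDARG00000058606), a kinase of the cAMP response in mammalian liver, stood at 9.16, 8.02, 7.54 and 12.1 CPM at 3.75 nM and at 60.9, 34.1, 60.8 and 74.3 CPM at 37.5 nM, and rose by 2.64 ± 0.27 (adjusted p = 0.000302). creb3l3a (ENSDARG00000056226), a membrane-bound transcription factor of the fasted liver in mammals, rose by 1.71 ± 0.22 (adjusted p = 0.000797). PDK2 (ENSDARG00000020876, a symbol on 2 gene rows), a kinase that turns off pyruvate dehydrogenase, stood at 9.66, 43.9, 31.8 and 23.7 CPM at 3.75 nM and at 111, 140.2, 155 and 129 CPM at 37.5 nM, and rose by 2.30 ± 0.41 (adjusted p = 0.0035). PCK1 (ENSDARG00000013522), which commits oxaloacetate to glucose synthesis, did not pass: its log2 change was −0.83 ± 0.79 (adjusted p = 0.451) and the groups overlapped between 536 and 2078 CPM at 3.75 nM and 120.3 and 1637 CPM at 37.5 nM. Among genes of gluconeogenesis and glycogen, 12 of 34 tested genes rose, 4 fell and 18 missed the threshold (median log2 change 0.27; 2 to 6 fell over the alternatives). Among genes of growth hormone, insulin and IGF signalling, 12 of 37 tested genes rose, 2 fell and 23 missed the threshold (median log2 change 0.61; 0 to 3 fell over the alternatives).

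More genes of fat synthesis fell than rose at 37.5 nM. FASN (ENSDARG00000087657), fatty acid synthase, stood at 8344, 3659, 12048 and 13040.0 CPM at 3.75 nM and at 1242, 489.8, 419 and 251 CPM at 37.5 nM. Fish 166 and 167 were the highest and the groups did not overlap, with a fall of 3.95 ± 0.62 (adjusted p = 0.00197). ACSBG2 (ENSDARG00000004094), an acyl-CoA synthetase, stood at 302, 139, 982 and 1370.1 CPM at 3.75 nM and at 24.3, 6.47, 6.41 and 6.31 CPM at 37.5 nM, a fall of 6.00 ± 0.94 (adjusted p = 0.00201). MID1IP1 (ENSDARG00000019302), which helps acetyl-CoA carboxylase form active polymers, fell by 3.17 ± 0.48 (adjusted p = 0.00169), GPAM (ENSDARG00000074169), the first enzyme of glycerolipid synthesis, by 2.26 ± 0.19 (adjusted p = 0.00017), and MTTP (ENSDARG00000008637), which loads lipid onto apolipoprotein B, by 1.3 ± 0.18 (adjusted p = 0.000973). PNPLA2 (ENSDARG00000089390), the lipase that opens stored triglyceride, moved the other way: it stood at 3.22, 6.53, 5.11 and 5.79 CPM at 3.75 nM and at 37.7, 57.8, 27.1 and 33.8 CPM at 37.5 nM, a rise of 2.92 ± 0.30 (adjusted p = 0.000328). g0s2 (ENSDARG00000078859), known in mammals as an inhibitor of that lipase, fell by 1.8 ± 0.28 (adjusted p = 0.00182). Among genes of fatty acid and triglyceride synthesis, 4 of 47 tested genes rose, 20 fell and 23 missed the threshold (median log2 change −0.88; 13 to 23 fell over the alternatives), with 13 lower without fish 174.

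Few genes of fat burning passed. cpt1ab (ENSDARG00000062054), a carnitine palmitoyltransferase that admits fatty acids to mitochondria, stood at 29.8, 44.3, 50.5 and 30.2 CPM at 3.75 nM and at 111, 135, 158 and 90 CPM at 37.5 nM, a rise of 1.68 ± 0.25 (adjusted p = 0.00133). CRAT (ENSDARG00000040248, a symbol on 2 gene rows), carnitine acetyltransferase, rose by 0.91 ± 0.18 (adjusted p = 0.00472). Among genes of fatty acid oxidation and ketogenesis, 4 of 42 tested genes rose, 1 fell and 37 missed the threshold (median log2 change 0.12; 0 to 3 fell over the alternatives), and the share of calls was below that of all genes. LPL (ENSDARG00000087697, a symbol on 2 gene rows), lipoprotein lipase, rose by 1.6 ± 0.36 (adjusted p = 0.00997). SOAT2 (ENSDARG00000059824), which esterifies cholesterol, stood at 8.67, 12.1, 6.99 and 8.12 CPM at 3.75 nM and at 233, 214, 20.2 and 193 CPM at 37.5 nM. Fish 175 was far below the rest of its group and still above the 3.75 nM fish, and the log2 change was 4.20 ± 0.70 (adjusted p = 0.00258). NPC1 (ENSDARG00000017180), the lysosomal cholesterol exporter, rose by 0.95 ± 0.13 (adjusted p = 0.00116), and LRP1 (ENSDARG00000029146, a symbol on 2 gene rows), a lipoprotein receptor, by 1.21 ± 0.22 (adjusted p = 0.00343). MVK (ENSDARG00000004130), mevalonate kinase, fell by 2.26 ± 0.61 (adjusted p = 0.0221), a call that ended without fish 163, 173, 174 or 177 (adjusted p of 0.0529, 0.0616, 0.0563 and 0.0582). Among genes of cholesterol synthesis and uptake, 2 of 40 tested genes rose, 8 fell and 30 missed the threshold (median log2 change −0.71; 3 to 16 fell over the alternatives), with 4, 15, 5, 4, 3, 14 and 3 lower without fish 163, 165, 166, 173, 174, 175 and 177.

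Among genes for enzymes that make NADPH, or use it against oxidants, more fell than rose, and most missed the threshold. PGD (ENSDARG00000015343), 6-phosphogluconate dehydrogenase of the pentose phosphate pathway, stood at 701, 359, 1566 and 1583 CPM at 3.75 nM and at 199.5, 72.7, 87.2 and 102 CPM at 37.5 nM. As for FASN, fish 166 and 167 were the highest and fish 165 the lowest at 3.75 nM, and the fall was 3.19 ± 0.56 (adjusted p = 0.00325). prdx1 (ENSDARG00000058734), a peroxiredoxin that breaks down hydrogen peroxide, stood at 37.1, 98.1, 284 and 282 CPM at 3.75 nM and at 10.2, 8.4, 4.17 and 11.5 CPM at 37.5 nM, a fall of 4.35 ± 0.71 (adjusted p = 0.00232). txnb (ENSDARG00000044125), a thioredoxin, fell by 1.41 ± 0.12 (adjusted p = 0.000196), and KEAP1 (ENSDARG00000074634), which holds the antioxidant factor NRF2 in check, rose by 0.72 ± 0.13 (adjusted p = 0.00384). HMOX1 (ENSDARG00000027529), heme oxygenase, stood at 75.7, 78.8, 5.44 and 7.31 CPM at 3.75 nM and at 137, 249, 95.4 and 109 CPM at 37.5 nM. It was low in fish 166 and 167, and each 37.5 nM fish lay above each 3.75 nM fish. By edgeR it did not pass (log2 change 1.82 ± 0.88, adjusted p = 0.146), while by limma voom it did (log2 change 2.67, adjusted p = 0.0477). Among genes of the pentose phosphate pathway and NRF2 antioxidants, 5 of 51 tested genes rose, 18 fell and 28 missed the threshold (median log2 change −0.24; 2 to 7 rose and 8 to 19 fell over the alternatives), with 2, 3, 2 and 2 higher without fish 167, 173, 174 and 175 and 8, 10 and 11 lower without fish 174, 175 and 177.

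**Figure D2:**
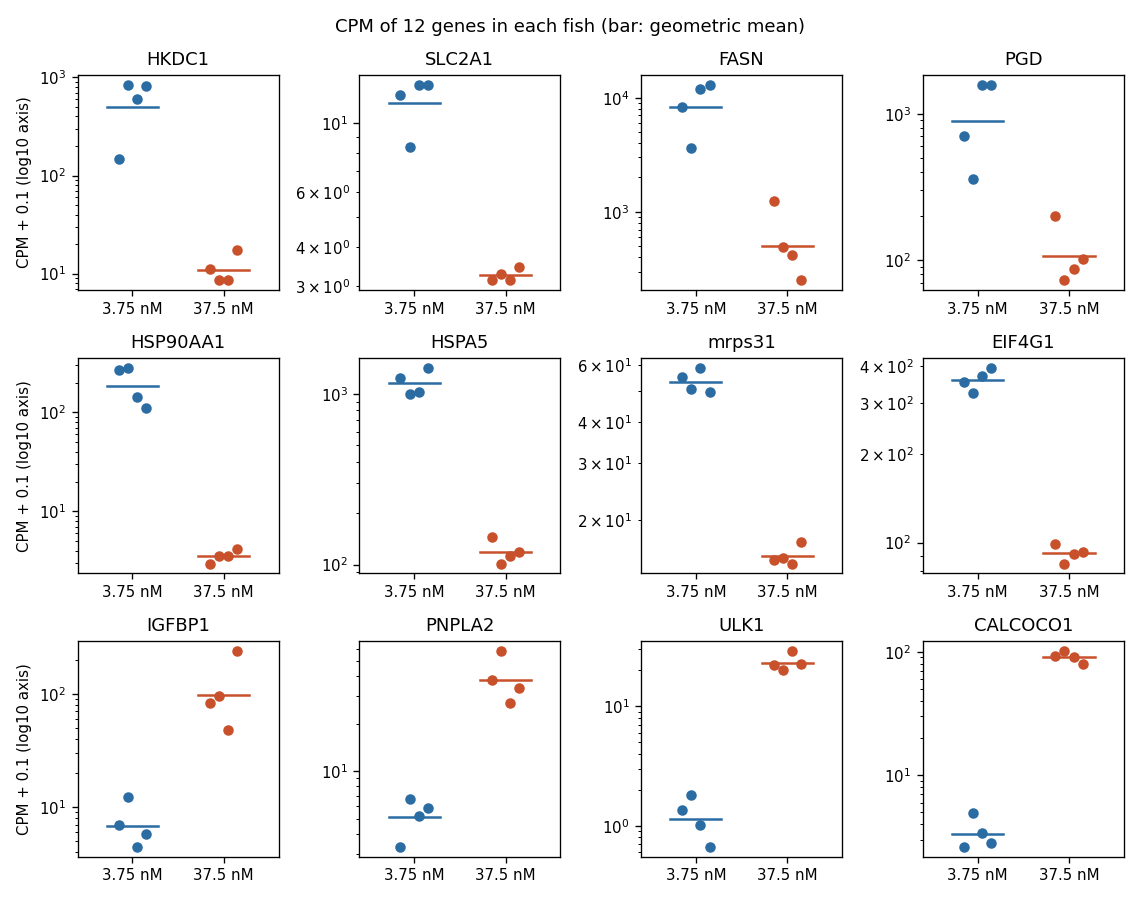
CPM of 12 genes in each of the 8 fish on a log10 axis, after adding 0.1 to each value so that a count of 0 can be drawn, with 3.75 nM and 37.5 nM fish side by side and a bar at the geometric mean of each group. The 37.5 nM fish lie below all 3.75 nM fish for the genes of the first 2 rows of panels and above them for those of the third row.

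Genes for cytosolic chaperones were lower at 37.5 nM, several of them by a large factor. HSP90AA1 (ENSDARG00000024746), the stress-inducible Hsp90, stood at 269.9, 282, 144 and 110.4 CPM at 3.75 nM and at 2.87, 3.46, 3.46 and 4.06 CPM at 37.5 nM. The 37.5 nM fish lay within a narrow range and the fall was 5.86 ± 0.38 (adjusted p = 0.000103). hsp70.3 (ENSDARG00000021924), a heat-inducible Hsp70 of zebrafish, stood at 129, 109, 73.5 and 57.2 CPM at 3.75 nM and at 0.562, 0.455, 0.65 and 1.7 CPM at 37.5 nM, a fall of 6.76 ± 0.54 (adjusted p = 0.000168). HSPA2 (ENSDARG00000092362), another Hsp70, fell by 5.53 ± 0.59 (adjusted p = 0.000408), and reads shared among near-identical Hsp70 copies could be split by the counting. Helpers of these chaperones fell as well: PTGES3 (ENSDARG00000089626, a symbol on 2 gene rows), the Hsp90 co-chaperone p23, by 2.51 ± 0.15 (adjusted p = 7.37e-05), HSPBP1 (ENSDARG00000102937), a nucleotide exchange factor of Hsp70, by 2.26 ± 0.14 (adjusted p = 7.97e-05), and AHSA1 (ENSDARG00000100317, a symbol on 2 gene rows), an activator of the Hsp90 ATPase, by 1.88 ± 0.14 (adjusted p = 0.000128). PTGES3 went from 72.3 ± 8.01 to 12.7 ± 1.92 CPM. Among genes of the cytosolic heat shock response, 2 of 50 tested genes rose, 32 fell and 16 missed the threshold (median log2 change −0.99; 1 to 3 rose over the alternatives). For the CCT chaperonin, which folds actin and tubulin, and its partner prefoldin, 0 of 20 tested genes rose, 11 fell and 9 missed the threshold (median log2 change −0.45; 7 to 13 fell over the alternatives), with 7 lower without fish 174. CCT7 (ENSDARG00000007385), a CCT subunit, stood at 246, 232, 231 and 237 CPM at 3.75 nM and at 111, 113, 91.8 and 123 CPM at 37.5 nM, a fall of 1.11 ± 0.12 (adjusted p = 0.000401).

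Genes for chaperones of the endoplasmic reticulum (ER) were lower too. HSPA5 (ENSDARG00000103846), the main ER Hsp70 and a standard marker of the unfolded protein response, stood at 1241, 997, 1029 and 1420.0 CPM at 3.75 nM and at 145, 101, 113 and 119 CPM at 37.5 nM, a fall of 3.29 ± 0.18 (adjusted p = 7.37e-05). MANF (ENSDARG00000063177), a secreted factor made under ER stress, stood at 181, 143, 139.6 and 169.5 CPM at 3.75 nM and at 28.7, 28.1, 24 and 24.8 CPM at 37.5 nM, a fall of 2.58 ± 0.14 (adjusted p = 7.16e-05). CRELD2 (ENSDARG00000029071) and HYOU1 (ENSDARG00000013670), other ER stress genes, fell by 3.32 ± 0.20 (adjusted p = 7.97e-05) and 2.46 ± 0.18 (adjusted p = 0.000128). For these 4 genes each 37.5 nM fish lay below each 3.75 nM fish. Of the ER chaperones and the unfolded protein response, 5 of 57 tested genes rose, 35 fell and 17 missed the threshold (median log2 change −0.67).

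Nuclear genes that build mitochondria were lower, while messages of the mitochondrial genome were not. Among genes of the mitochondrial ribosome, which translates the messages of that genome, 0 of 74 tested genes rose, 61 fell and 13 missed the threshold (median log2 change −0.85). mrps31 (ENSDARG00000057855), a small-subunit protein, stood at 54.9, 50.6, 58.8 and 49.4 CPM at 3.75 nM and at 14.9, 15.1, 14.6 and 17 CPM at 37.5 nM, a fall of 1.79 ± 0.11 (adjusted p = 7.37e-05). MRPL12 (ENSDARG00000038768), a large-subunit protein, fell by 1.15 ± 0.09 (adjusted p = 0.000167) from 39.6 ± 2.18 to 17.9 ± 0.987 CPM. Of the mitochondrial chaperones, proteases and protein import, 7 of 41 tested genes rose, 25 fell and 9 missed the threshold (median log2 change −0.94). TOMM22 (ENSDARG00000045146), a receptor of the outer import channel, stood at 41.6, 35.9, 52.4 and 47.8 CPM at 3.75 nM and at 11, 9.55, 9.66 and 11.8 CPM at 37.5 nM, a fall of 2.08 ± 0.15 (adjusted p = 0.000128). TIMM44 (ENSDARG00000104771), which anchors the import motor, fell by 1.69 ± 0.12 (adjusted p = 0.000117).

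Complex I is the target of rotenone, and its subunits and assembly factors were counted apart, with no test between them. Of its nuclear subunits, 0 of 39 tested genes rose, 6 fell and 33 missed the threshold (median log2 change −0.13; 3 to 10 fell over the alternatives), with 3 lower without fish 163, 167, 173, 174 or 177. The share of these subunits called was below the 34.7% of all genes. NDUFS1 (ENSDARG00000028546), the largest subunit of the electron-accepting arm of complex I, stood at 188, 161, 143 and 170.1 CPM at 3.75 nM and at 154, 147, 162 and 141 CPM at 37.5 nM. The groups overlapped and the log2 change of −0.13 ± 0.12 did not pass (adjusted p = 0.434). NDUFA8 (ENSDARG00000058041), an accessory subunit, fell by 0.60 ± 0.09 (adjusted p = 0.00179). Of the factors that assemble complex I, 1 of 14 tested genes rose, 9 fell and 4 missed the threshold (median log2 change −0.85). ECSIT (ENSDARG00000062834), one such factor, stood at 27.4, 21.4, 26.7 and 28.6 CPM at 3.75 nM and at 6.47, 6.44, 5.41 and 7.19 CPM at 37.5 nM, a fall of 2.03 ± 0.14 (adjusted p = 0.000118), and NDUFAF1 (ENSDARG00000025549), another, fell by 1.02 ± 0.11 (adjusted p = 0.000414). Among nuclear subunits of the other complexes, 0 of 45 tested genes rose, 12 fell and 33 missed the threshold (median log2 change −0.19; 8 to 21 fell over the alternatives). cycsb (ENSDARG00000044562), a cytochrome c, the mobile carrier that passes electrons between complexes III and IV, stood at 399, 265, 467 and 372 CPM at 3.75 nM and at 91.4, 72.3, 54.1 and 48.9 CPM at 37.5 nM, a fall of 2.49 ± 0.26 (adjusted p = 0.000329). SDHB (ENSDARG00000075768) of complex II fell by 1.08 ± 0.14 (adjusted p = 0.000873).

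Of the 13 protein-coding messages of the mitochondrial genome, 9 rose, 0 fell and 4 missed the threshold (median log2 change 0.54; 2 to 9 rose over the alternatives), with 3, 3, 2, 3 and 3 higher without fish 165, 166, 167, 175 and 177. MT-ATP6 (ENSDARG00000063911), a subunit of ATP synthase, stood at 5057, 4149.9, 4754 and 4462 CPM at 3.75 nM and at 6222, 7252, 6996 and 8773 CPM at 37.5 nM, a rise of 0.67 ± 0.14 (adjusted p = 0.00688). Among genes of the TCA cycle, 1 of 26 tested genes rose, 9 fell and 16 missed the threshold (median log2 change −0.34; 0 to 1 rose over the alternatives). DLAT (ENSDARG00000015918), a core subunit of pyruvate dehydrogenase, the enzyme that PDK2 turns off, stood at 71.3, 75.2, 126 and 148 CPM at 3.75 nM and at 32.8, 36.9, 19 and 22.7 CPM at 37.5 nM, a fall of 1.92 ± 0.32 (adjusted p = 0.00233). For hypoxia and mitophagy, 7 of 30 tested genes rose, 7 fell and 16 missed the threshold (median log2 change −0.13; 4 to 8 rose over the alternatives). BNIP3 (ENSDARG00000099961), a receptor that marks mitochondria for removal, stood at 9.13, 14.4, 6.23 and 8.45 CPM at 3.75 nM and at 68.7, 74, 64.3 and 51.6 CPM at 37.5 nM, a rise of 2.76 ± 0.26 (adjusted p = 0.000246). higd1a (ENSDARG00000022303), a hypoxia-inducible mitochondrial protein, fell by 2.63 ± 0.33 (adjusted p = 0.000698) from 170.1 ± 68.2 to 27.4 ± 6.63 CPM.

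**Figure D3:**
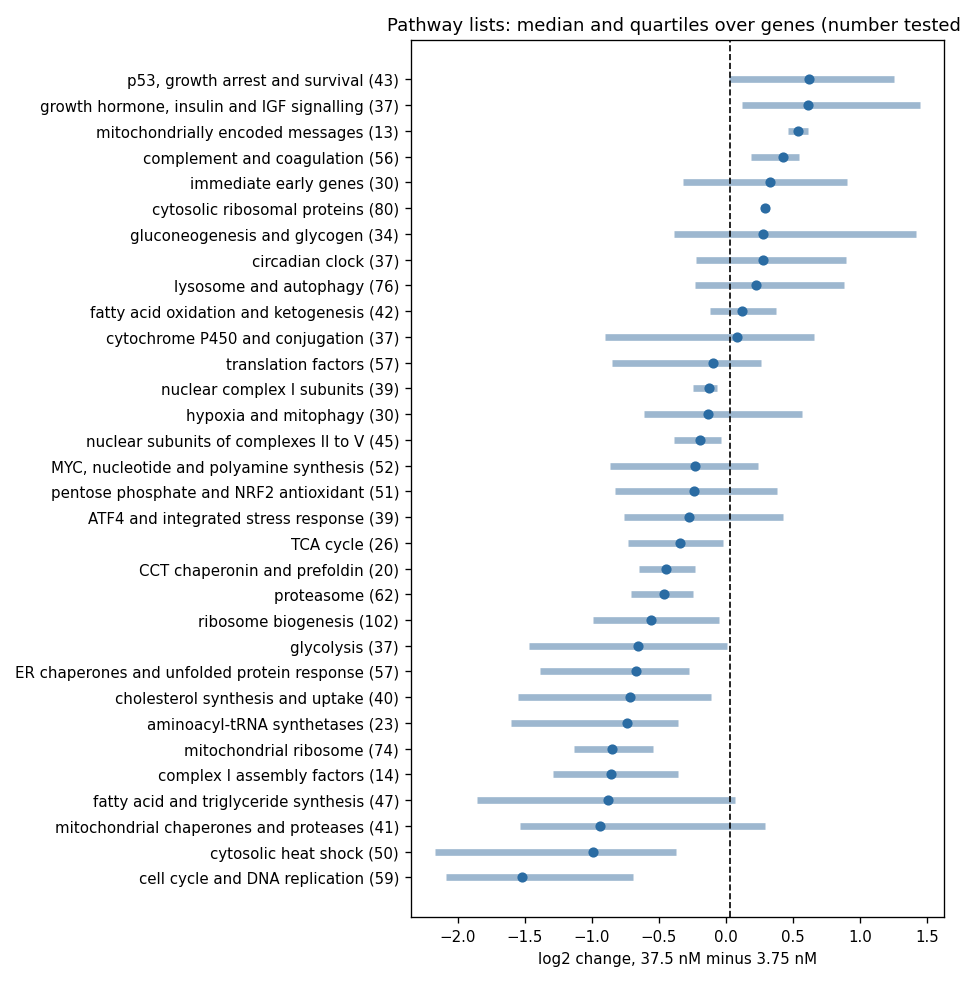
Median log2 change (37.5 nM minus 3.75 nM) of the tested genes in each of the 32 pathway lists, with a bar from the first to the third quartile over genes and the number tested beside each name. The dashed line is the median of all 15199 tested genes at 0.03. The cell cycle list lies lowest, at −1.52, and the list of p53, growth arrest and survival highest, at 0.62.

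More genes of ribosome production fell than rose. Among genes of ribosome biogenesis, 9 of 102 tested genes rose, 52 fell and 41 missed the threshold (median log2 change −0.56). GNL3 (ENSDARG00000006219), a nucleolar GTP-binding protein, stood at 46.5, 36.6, 66.9 and 53 CPM at 3.75 nM and at 13.5, 14.1, 11.1 and 14.9 CPM at 37.5 nM, a fall of 1.92 ± 0.20 (adjusted p = 0.000318), and NOL6 (ENSDARG00000059711), a nucleolar factor of the small subunit, fell by 1.55 ± 0.18 (adjusted p = 0.000562). nop53 (ENSDARG00000100452), a factor of large-subunit maturation, was among those that rose, by 1.11 ± 0.13 (adjusted p = 0.000536). Few proteins of the ribosome itself passed: of cytosolic ribosomal proteins, 5 of 80 tested genes rose, 0 fell and 75 missed the threshold (median log2 change 0.29; 0 to 19 rose over the alternatives), with 3, 2, 0, 0, 1, 0, 1 and 1 higher without fish 163, 165, 166, 167, 173, 174, 175 and 177. A positive log2 change, mostly small, was found in 79 of the 80. In 48 of the 80 each 37.5 nM fish lay above each 3.75 nM fish, against 2851 of 15199 over all genes. Of the translation factors, 8 of 57 tested genes rose, 22 fell and 27 missed the threshold (median log2 change −0.10; 2 to 10 rose over the alternatives), with 3, 4, 2, 3, 3, 2 and 5 higher without fish 165, 166, 167, 173, 174, 175 and 177. EIF4G1 (ENSDARG00000006200), the scaffold of the cap-binding complex, stood at 353, 324, 369.7 and 395 CPM at 3.75 nM and at 98.8, 84.7, 91 and 92.9 CPM at 37.5 nM, a fall of 1.97 ± 0.12 (adjusted p = 7.37e-05). ETF1 (ENSDARG00000043976), which releases finished chains at stop codons, fell by 1.70 ± 0.15 (adjusted p = 0.000206).

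Among the aminoacyl-tRNA synthetases, which charge tRNAs with amino acids, 1 of 23 tested genes rose, 16 fell and 6 missed the threshold (median log2 change −0.74). LARS1 (ENSDARG00000019280), for leucine, stood at 56.8, 49.5, 57.4 and 54.8 CPM at 3.75 nM and at 19.6, 16.5, 15.9 and 18.6 CPM at 37.5 nM, a fall of 1.63 ± 0.11 (adjusted p = 0.000117), and TARS1 (ENSDARG00000013250), for threonine, fell by 1.75 ± 0.14 (adjusted p = 0.00017). For ATF4 and the integrated stress response, 6 of 39 tested genes rose, 9 fell and 24 missed the threshold (median log2 change −0.28). nupr1a (ENSDARG00000094300), a stress-inducible chromatin protein, stood at 1.94, 2.61, 1.79 and 3.27 CPM at 3.75 nM and at 24.4, 26, 33.8 and 20.1 CPM at 37.5 nM, a rise of 3.44 ± 0.25 (adjusted p = 0.000128), and DDIT3 (ENSDARG00000059836), the CHOP transcription factor, rose by 1.07 ± 0.23 (adjusted p = 0.0087). ASNS (ENSDARG00000016375), asparagine synthetase, fell by 1.36 ± 0.24 (adjusted p = 0.00287), CTH (ENSDARG00000074301, a symbol on 2 gene rows), which releases cysteine from cystathionine, by 1.79 ± 0.25 (adjusted p = 0.00117), and ALDH1L2 (ENSDARG00000070230), a mitochondrial folate enzyme, by 2.73 ± 0.24 (adjusted p = 0.000189). The stress hormones FGF21 and GDF15 were not among the tested genes.

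More genes of cell division fell than rose, and more genes of growth arrest rose than fell, while most of both lists missed the threshold. LMNB1 (ENSDARG00000044299), lamin B1 of the nuclear envelope, stood at 34.2, 32.6, 36.5 and 36.1 CPM at 3.75 nM and at 5.62, 7.14, 4.08 and 5.23 CPM at 37.5 nM, a fall of 2.66 ± 0.17 (adjusted p = 0.000103). UHRF1 (ENSDARG00000103409), which keeps DNA methylation through replication, fell by 2.07 ± 0.37 (adjusted p = 0.00335), and PCNA (ENSDARG00000054155), the sliding clamp of DNA polymerase, by 2.1 ± 0.50 (adjusted p = 0.013). RFC3 (ENSDARG00000055969), a subunit of the clamp loader, rose by 1.64 ± 0.32 (adjusted p = 0.00495). Among genes of the cell cycle and DNA replication, 1 of 59 tested genes rose, 22 fell and 36 missed the threshold (median log2 change −1.52; 1 to 2 rose and 12 to 30 fell over the alternatives), with 14, 13, 13, 12 and 12 lower without fish 166, 167, 173, 174 and 175. BTG1 (ENSDARG00000027249), an antiproliferative factor, stood at 232, 273, 188 and 193 CPM at 3.75 nM and at 604, 493, 501 and 354 CPM at 37.5 nM, a rise of 1.14 ± 0.20 (adjusted p = 0.00295). mdm2 (ENSDARG00000033443), the ubiquitin ligase of p53 and one of its targets, rose by 0.74 ± 0.11 (adjusted p = 0.00165), and mcl1a (ENSDARG00000009779), a survival protein of the BCL2 family, by 1.53 ± 0.27 (adjusted p = 0.003). Among genes of p53, growth arrest and survival, 13 of 43 tested genes rose, 3 fell and 27 missed the threshold (median log2 change 0.62; 1 to 4 fell over the alternatives).

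IMPDH1 (ENSDARG00000029524, a symbol on 2 gene rows), which commits purines to guanine nucleotides, stood at 7.42, 10.9, 7.12 and 10.7 CPM at 3.75 nM and at 125, 112, 121 and 102 CPM at 37.5 nM. It was among the clearest rises, by 3.67 ± 0.19 (adjusted p = 7.16e-05), and was 1 of few in its list to rise: among genes of MYC, nucleotide and polyamine synthesis, 3 of 52 tested genes rose, 12 fell and 37 missed the threshold (median log2 change −0.23; 3 to 6 rose over the alternatives). SRM (ENSDARG00000055760), spermidine synthase, stood at 30.9, 27.9, 41.8 and 45.3 CPM at 3.75 nM and at 8.34, 8.29, 7.83 and 9.73 CPM at 37.5 nM, a fall of 2.09 ± 0.18 (adjusted p = 0.000189), and AMD1 (ENSDARG00000043856), which supplies that enzyme, fell by 2.55 ± 0.23 (adjusted p = 0.000199). MYC was carried by a pair of gene rows, and neither passed. ENSDARG00000007241 stood at 18.7, 6.37, 6.39 and 7.43 CPM at 3.75 nM and at 3.66, 7.28, 214 and 148 CPM at 37.5 nM. Fish 175 and 177 were far above the other 6, and the adjusted p of its log2 change of 3.26 ± 1.23 was 0.0735, which fell to 0.0313 without fish 173, to 0.0481 without fish 174 and to 0.0173 with DESeq2. ENSDARG00000045695 stood at 2.2, 0.521, 3.62 and 2.13 CPM at 3.75 nM and at 1.81, 1.01, 0.65 and 0.877 CPM at 37.5 nM, with overlapping groups and a log2 change of −0.96 ± 0.55 (adjusted p = 0.21), and it passed without fish 165 (log2 change −1.31, adjusted p = 0.0356).

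More proteasome genes fell than rose, and more lysosome and autophagy genes rose than fell. Of proteasome genes, 2 of 62 tested genes rose, 33 fell and 27 missed the threshold (median log2 change −0.46; 1 to 3 rose and 21 to 35 fell over the alternatives), with 21 lower without fish 174. PSMD12 (ENSDARG00000052377), a subunit of the regulatory lid, stood at 68.9, 73.1, 61.1 and 68 CPM at 3.75 nM and at 28, 26.7, 24.8 and 31.2 CPM at 37.5 nM, a fall of 1.29 ± 0.11 (adjusted p = 0.000196), and PSMC3 (ENSDARG00000007141), an ATPase of its base, fell by 1.12 ± 0.13 (adjusted p = 0.000452). Of lysosome and autophagy genes, 25 of 76 tested genes rose, 10 fell and 41 missed the threshold (median log2 change 0.23; 6 to 14 fell over the alternatives). ULK1 (ENSDARG00000074481), the kinase that starts autophagy, stood at 1.25, 1.72, 0.912 and 0.57 CPM at 3.75 nM and at 21.9, 19.8, 28.8 and 22.6 CPM at 37.5 nM, a rise of 4.39 ± 0.33 (adjusted p = 0.000143). Its paralog ulk1a (ENSDARG00000062518) rose by 4.09 ± 0.31 (adjusted p = 0.000143). MAP1LC3A (ENSDARG00000033609), the LC3 protein that coats forming autophagosomes, stood at 6.04, 10.6, 8.97 and 9.41 CPM at 3.75 nM and at 54.3, 51.5, 74.9 and 46.4 CPM at 37.5 nM, a rise of 2.70 ± 0.22 (adjusted p = 0.00017), and WIPI2 (ENSDARG00000037871), a lipid-binding protein of their membrane, rose by 1.82 ± 0.15 (adjusted p = 0.000165).

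The gene with the largest rise among those with a symbol, a mean of at least 4 CPM and no overlap was CALCOCO1 (ENSDARG00000036695, a symbol on 2 gene rows), an autophagy receptor for the ER and Golgi in mammals. It stood at 2.53, 4.81, 3.31 and 2.7 CPM at 3.75 nM and at 93.2, 101, 91.3 and 79.6 CPM at 37.5 nM, a rise of 4.78 ± 0.24 (adjusted p = 7.16e-05). KLHL24 (ENSDARG00000021739, a symbol on 2 gene rows), a substrate adaptor of a cullin ubiquitin ligase, stood at 0.296, 0.722, 0.182 and 0.33 CPM at 3.75 nM and at 10.9, 10.6, 9.07 and 9.73 CPM at 37.5 nM, a rise of 4.74 ± 0.37 (adjusted p = 0.00015). tdo2b (ENSDARG00000023176), tryptophan dioxygenase, the first enzyme of tryptophan breakdown and a glucocorticoid-induced gene in mammalian liver, stood at 12.5, 59.6, 18.2 and 27.1 CPM at 3.75 nM and at 965, 1056, 441 and 575 CPM at 37.5 nM, a rise of 4.69 ± 0.59 (adjusted p = 0.000731). For these 3 genes the lowest 37.5 nM fish lay far above the highest 3.75 nM fish. znrf2a (ENSDARG00000077855), a membrane ubiquitin ligase, rose by 4.20 ± 0.35 (adjusted p = 0.00017), YPEL3 (ENSDARG00000055510), a Yippee-like protein, by 4.28 ± 0.98 (adjusted p = 0.0112), and aplnra (ENSDARG00000002172), an apelin receptor, by 4.13 ± 0.70 (adjusted p = 0.00273). Among the 10 lowest were also krt5 (ENSDARG00000058371), a keratin, and si:dkey-33c14.2 (ENSDARG00000097762). The keratin rested on fish 167, at 56.9 CPM against 1.25 CPM or less in the other 7, and without that fish it did not pass (log2 change −2.07, adjusted p = 0.0678); nor did it without fish 173, 174, 175 or 177 (adjusted p of 0.0873, 0.0891, 0.0553 and 0.0851). The change of si:dkey-33c14.2 was −5.22 ± 1.4 (adjusted p = 0.0214). It did not pass without fish 174 (adjusted p = 0.0556) and was −9.78 without fish 177.

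More clock genes rose than fell, and genes of the clock and of detoxification were both called at a share near that of all genes. Among genes of the circadian clock, 11 of 37 tested genes rose, 1 fell and 25 missed the threshold (median log2 change 0.27; 0 to 3 fell over the alternatives). nfil3-5 (ENSDARG00000094965), a paralog of the clock repressor NFIL3, stood at 27.5, 17.4, 14.5 and 25.9 CPM at 3.75 nM and at 146, 69.5, 82.1 and 118 CPM at 37.5 nM, a rise of 2.28 ± 0.31 (adjusted p = 0.000905). PER3 (ENSDARG00000010519), a period protein, rose by 1.46 ± 0.27 (adjusted p = 0.00407), and CRY1 (ENSDARG00000045768, a symbol on 2 gene rows), a cryptochrome, by 0.72 ± 0.15 (adjusted p = 0.0071). The labels give no time of day for the dissections. Of the immediate early genes, 5 of 30 tested genes rose, 3 fell and 22 missed the threshold (median log2 change 0.33; 3 to 6 rose and 2 to 5 fell over the alternatives), with 3 higher without fish 163, 165, 166, 167 or 174. FOS (ENSDARG00000031683) stood at 1.25, 2.32, 0.852 and 1.11 CPM at 3.75 nM and at 3.41, 26.5, 6.8 and 11.2 CPM at 37.5 nM, a rise of 3.12 ± 0.66 (adjusted p = 0.00754), with fish 174 the highest. Among genes of cytochrome P450 and conjugation, 7 of 37 tested genes rose, 5 fell and 25 missed the threshold (median log2 change 0.08; 6 to 11 rose and 2 to 7 fell over the alternatives), with 3, 3, 3 and 2 lower without fish 163, 165, 174 and 177. cyp27a1.1 (ENSDARG00000033802), a sterol hydroxylase of bile acid synthesis, stood at 11.8, 25.7, 11.2 and 19.1 CPM at 3.75 nM and at 125, 92.7, 121 and 130.3 CPM at 37.5 nM, a rise of 2.79 ± 0.29 (adjusted p = 0.000355). NR1I2 (ENSDARG00000029766), the xenobiotic receptor PXR, rose by 1.94 ± 0.27 (adjusted p = 0.001), and cyp2k19 (ENSDARG00000101861), a fish P450, fell by 1.14 ± 0.15 (adjusted p = 0.000958). CYP1A1 (ENSDARG00000098315), the standard target of the aryl hydrocarbon receptor, stood at 1057, 673, 500.2 and 523 CPM at 3.75 nM and at 1011, 932, 1005 and 673 CPM at 37.5 nM, with overlapping groups, and did not pass (log2 change 0.40 ± 0.26, adjusted p = 0.278), although it did without fish 163 (adjusted p = 0.0369). Among genes of secreted complement and coagulation proteins, 13 of 56 tested genes rose, 0 fell and 43 missed the threshold (median log2 change 0.42; 0 to 17 rose and 0 to 2 fell over the alternatives), with 6, 4, 5, 6 and 7 higher without fish 166, 167, 173, 174 and 175. The share called was below the 34.7% of all genes, and the fit over all 18 one-year fish called 0 of 57.

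The summed markers of the endocrine pancreas, of erythrocytes and of thrombocytes did not overlap between the groups, with a narrow gap for erythrocytes and thrombocytes. Hormone genes of the endocrine pancreas, an organ that in zebrafish lies beside the gut and liver, were lower at 37.5 nM: 0 of 9 tested genes rose, 8 fell and 1 missed the threshold (median log2 change −4.97; 7 to 14 fell over the alternatives), with 14 of 15 tested genes lower without fish 163. In the main fit 9 of the 18 marker rows passed the count filter, and without fish 163 more did. The filter admits a gene counted in 1 group alone, and all markers together reached at most 21.6 CPM at 37.5 nM. Genes admitted through the 3.75 nM fish could hardly rise, so these counts and the median were in part set by the filter. With no filter beyond 1 count, 0 of 16 tested genes rose and 11 fell (median log2 change −4.53). ins (ENSDARG00000035350), insulin, stood at 63.7, 137, 463 and 287 CPM at 3.75 nM and at 4.19, 0.245, 4.67 and 0 CPM at 37.5 nM. SST (ENSDARG00000040799), somatostatin, stood at 12.2, 43.4, 92.5 and 56 CPM at 3.75 nM and at 0.156, 0.84, 1.74 and 0 CPM at 37.5 nM. The groups did not overlap for either gene, and the log2 changes were −6.70 ± 1.46 (adjusted p = 0.00888) and −6.21 ± 1.15 (adjusted p = 0.00411). With all 18 one-year fish in a single fit the adjusted p of ins was 0.0509. Summed over the list, endocrine markers stood at 101, 298, 797 and 481 CPM at 3.75 nM and at 7.65, 7.17, 21.6 and 0.76 CPM at 37.5 nM. Fish 166 and 167 had the highest sums, as they had the highest FASN, PGD and prdx1, while HKDC1 was highest in fish 165. Markers of the exocrine pancreas, the larger part of the same organ, overlapped, with sums from 3305 to 19381 CPM and from 931 to 14496 CPM. By edgeR 0 of its 25 tested genes passed, with 0 at an unadjusted p of 0.05 and 0 by DESeq2 and by limma voom, and their median log2 change was −0.97. The part of pancreatic RNA in the other results was not tested.

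Erythrocyte markers summed to 297 to 591 CPM at 3.75 nM and 620.3 to 955 CPM at 37.5 nM, without overlap. hbaa1 (ENSDARG00000097011), an adult alpha globin, stood at 22.7, 29.5, 18.5 and 18.1 CPM at 3.75 nM and at 40.9, 58.3, 66.1 and 45.7 CPM at 37.5 nM, a rise of 1.25 ± 0.21 (adjusted p = 0.0028). Of the erythrocyte markers, 6 of 24 tested genes rose, 3 fell and 15 missed the threshold (median log2 change 0.64; 2 to 12 rose and 1 to 3 fell over the alternatives), with 12, 2, 2, 3 and 3 higher without fish 165, 166, 167, 175 and 177. Those that fell included heme synthesis genes, which hepatocytes use as well. The share of erythrocyte genes called was near the 34.7% of all genes. The groups did not overlap in 4 genes upward and 3 downward, a smaller share than the 36.8% of all genes. Thrombocyte markers summed to 688 to 971 CPM at 3.75 nM and 976 to 1354 CPM at 37.5 nM, so the highest 3.75 nM fish (163) and the lowest 37.5 nM fish (175) nearly met. Of the thrombocyte markers, 2 of 13 tested genes rose, 0 fell and 11 missed the threshold (median log2 change 0.30; 1 to 2 rose over the alternatives). The groups did not overlap in 1 of these genes upward and 0 downward. Both shares were below the 34.7% called and the 36.8% without overlap of all genes. Macrophage and neutrophil markers overlapped, with sums of 109 to 501 CPM and 144 to 899 CPM. By edgeR 0 of their 29 tested genes passed, while 3 were lower and 0 higher at an unadjusted p of 0.05, DESeq2 called 2 higher and 3 lower, and limma voom 0. flt1 (ENSDARG00000019371), a vascular endothelial growth factor receptor, stood at 24.4, 22.4, 14.5 and 19.9 CPM at 3.75 nM and at 4.9, 4.93, 9.13 and 5.99 CPM at 37.5 nM, a fall of 1.70 ± 0.25 (adjusted p = 0.00136), while TIE1 (ENSDARG00000004105), another endothelial receptor, rose by 1.06 ± 0.24 (adjusted p = 0.0102). Of endothelial markers, 2 of 23 tested genes rose, 3 fell and 18 missed the threshold (median log2 change −0.07; 1 to 3 rose and 1 to 4 fell over the alternatives). Among hepatocyte markers, 3 of 27 tested genes rose, 1 fell and 23 missed the threshold (median log2 change 0.30; 1 to 3 rose and 0 to 3 fell over the alternatives). For endothelial and hepatocyte markers alike, the share called was below the 34.7% of all genes. The hepatocyte marker that fell was CEBPA (ENSDARG00000036074), a transcription factor of hepatocytes, at 151, 30.3, 549 and 423 CPM at 3.75 nM and at 38.6, 20, 25.8 and 43.9 CPM at 37.5 nM. It was higher in fish 166 and 167 than in fish 163 and 165, its change was −3.17 ± 0.80 (adjusted p = 0.0163), and it did not pass without fish 174 (adjusted p = 0.0502).

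**Figure D4:**
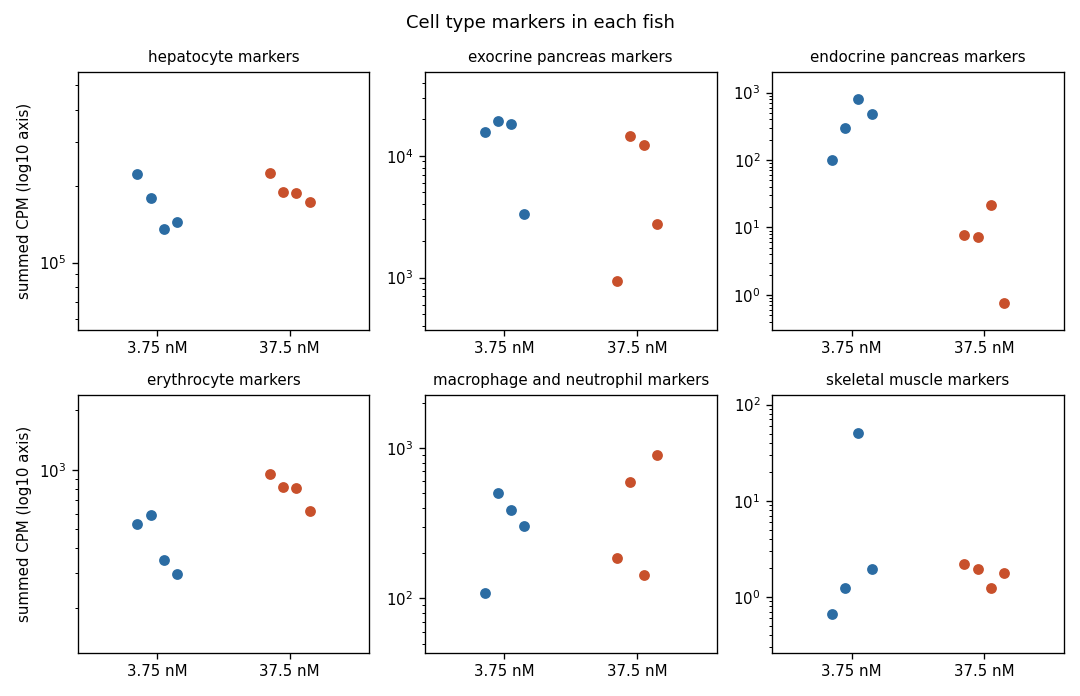
Summed CPM of 6 lists of cell type markers in each of the 8 fish, on a log10 axis, by dose. Endocrine pancreas markers run from 101 to 797 CPM at 3.75 nM and from 0.76 to 21.6 CPM at 37.5 nM, erythrocyte markers also do not overlap, and fish 166 stands alone in skeletal muscle markers at 50.1 CPM.

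The same contrast was also made in the 10 one-year fish numbered 189 to 202, and the difference between the dose effects was tested in a fit over all 18 one-year fish. It passed an adjusted p of 0.05 in 1098 of 17217 genes (6.38%), with the more positive effect in fish 163 to 177 for 790 and the more negative one for 308. By DESeq2 the split was 1117 and 938. The count moved to 706, 531, 532 and 697 without fish 173, 174, 175 or 177, to 528 and 518 without fish 166 or 167, and to 2068 without fish 189, a 3.75 nM fish of the other number series (an alternative added once the data had been seen). CALCOCO1 rose by 4.78 ± 0.24 in fish 163 to 177 and had a log2 change of −0.06 ± 0.50 among fish 189 to 202, with a difference of 4.89 ± 0.66 (adjusted p = 0.00209). For HSP90AA1 the change among fish 189 to 202 was −0.72 ± 0.31, and the difference −5.07 ± 0.48 (adjusted p = 0.000168). For FASN it was 0.14 ± 0.37, with a difference of −4.03 ± 0.70 (adjusted p = 0.00547). IMPDH1, ULK1, EIF4G1 and mrps31 differed too, by 3.68 ± 0.64, 3.63 ± 0.58, −1.25 ± 0.24 and −1.48 ± 0.19 (adjusted p = 0.00544, 0.00424, 0.00937 and 0.00152). Each of these 7 differences also passed with any 1 of the 8 fish left out. The 7 genes were named with results of these data known, and their change in the 8 fish is part of the difference.

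HSPA5 had a change of −2.64 ± 0.77 among fish 189 to 202 and a difference of −0.58 ± 0.87 (adjusted p = 0.741), and MANF a change of −2.07 ± 0.54 and a difference of −0.44 ± 0.62 (adjusted p = 0.723). Of the ER chaperone list 1 of 57 genes differed between the number series, and 7 without fish 189. Of the cytosolic heat shock list 13 of 50 did, and 18 without that fish. Over all genes the counts were 1098 of 17217, and 2068 of 17115 without fish 189. Without that fish the ER chaperone list thus lay near the share of all genes. No test compared the lists. For HSPA5 the result turned on fish 189. It stood at 1367 CPM, and the other 9 fish of its number series between 43.7 and 179 CPM (scaled over all 24 fish). Without it the HSPA5 change in that series was −1.17 ± 0.25, which did not pass by edgeR (adjusted p = 0.7). The changes of MANF, CRELD2 and HYOU1 in that series did not pass either (adjusted p = 0.7 for each). The HSPA5 difference without fish 189 was −2.1 ± 0.31, which passed (adjusted p = 0.000765). The CRELD2 difference passed too (−1.74 ± 0.43, adjusted p = 0.0171). Those of MANF (−1.09 ± 0.45, adjusted p = 0.14) and HYOU1 (−0.97 ± 0.38, adjusted p = 0.12) did not.

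The levels show where each set of fish lay. HSP90AA1 stood at 110.4 to 282 CPM in fish 163 to 167. Fish 189 to 193, also at 3.75 nM, stood at 8.02, 4.34, 6.15, 3.52 and 2.75 CPM and the 37.5 nM fish 198 to 202 at 3.8, 2.23, 2.2, 2.73 and 3.66 CPM. Fish 163 to 167 were thus far above the other 3.75 nM fish, which lay near the 37.5 nM fish. CALCOCO1 stood at 2.53 to 4.81 CPM in fish 163 to 167, at 8.65, 39.7, 84.1, 51.3 and 89.3 CPM in fish 189 to 193 and at 53.6, 73.4, 29.8, 52.4 and 46.1 CPM in fish 198 to 202. For FASN, fish 189 to 193 stood at 1091, 446, 462, 414 and 605 CPM and fish 198 to 202 at 762, 717, 551, 959.9 and 265 CPM, against 3659 CPM or more in fish 163 to 167. In each of these 3 genes fish 189 was the nearest of the 10 to fish 163 to 167. The 3-year fish 178 and 181, numbered with the 8 fish and at 37.5 nM, stood at 4.7 and 2.61 CPM for HSP90AA1, 147 and 46.9 CPM for CALCOCO1 and 511 and 24.8 CPM for FASN, on the side of fish 173 to 177.

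Over the 5277 genes called here, each other fish was placed by whether its log2(CPM + 1) lay nearer to the mean of fish 173 to 177 or to that of fish 163 to 167. Fish 189 was nearer to the 37.5 nM mean in 37.0% of the genes and fish 190 in 54.9%, and fish 191, 192 and 193, also at 3.75 nM, in 80.3%, 82.8% and 85.4%. The 37.5 nM fish numbered 198 to 202 were nearer to it in 72.9% to 85.5%. Of the 3-year fish at 37.5 nM, fish 178 and 181 were nearer to it in 84.4% and 71.7%, and the 4 numbered 194 to 197 in 84.1% to 87.1%. Across the tested genes, the median Pearson correlation of log2(CPM + 1) with fish 189 to 193 was 0.905 for fish 163 to 167, at the same dose, and 0.943 for fish 173 to 177, at the other. The ranges were nearly the same, from 0.868 to 0.959 and from 0.870 to 0.963. Within fish 189 to 193 the median was 0.917 (0.887 to 0.968). These shares and correlations describe genes that were called or tested in the 8 fish, and no test was run on them.

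**Figure D5:**
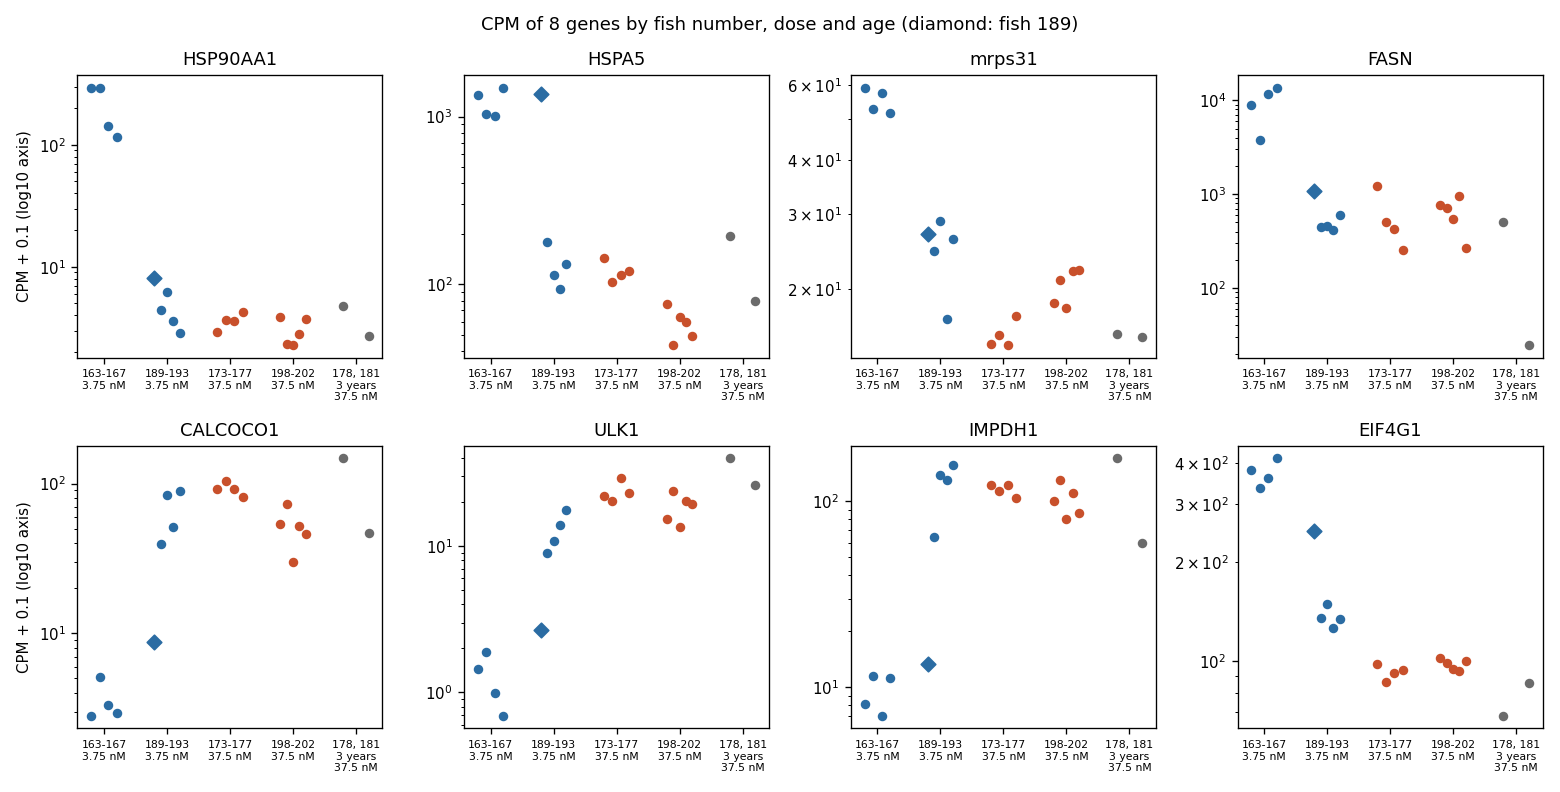
CPM (scaled over all 24 fish) of 8 genes on a log10 axis, after adding 0.1, in 5 sets of fish: 163 to 167 and 189 to 193 at 3.75 nM, 173 to 177 and 198 to 202 at 37.5 nM, and the 3-year fish 178 and 181 at 37.5 nM. Each point is 1 fish, and fish 189 is drawn as a diamond. Fish 163 to 167 stand apart from the other sets for HSP90AA1, FASN and CALCOCO1, and fish 189 lies level with them for HSPA5.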

How the data were processed

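Liver RNA of 24 male zebrafish was sequenced from TruSeq RNA v2 libraries, per the labels' protocols. Raw counts per gene were deposited in 2 tables, made with CASAVA 1.8.2, STAR 2.4.1d and featureCounts 1.4.6-p4 on GRCz10, per the submitters' processing notes, which give no strand setting. Antisense, overlapping and near-identical genes are therefore uncertain. Deposited RPKM-named values were not used. Joining the tables by gene identifier gave 32105 rows, 26269 of which had a symbol in the reference table of names.

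The test was edgeR 4.0.16's quasi-likelihood F test, two-sided and robust, with TMM factors and filterByExpr at a minimum count of 10 and a total of 15, over the 8 fish, with Benjamini-Hochberg adjustment over 15199 genes and a threshold of 0.05. SEs were derived from the size of the log2 change and the root of F. CPM values of fish 163 to 177 use the scaling of the 8 fish, and those of other fish the scaling of all 24. The biological coefficient of variation was 0.396. The difference between number series was tested in 1 edgeR fit over all 18 one-year fish. No pair of libraries agreed within counting noise (lowest chi-square per gene 90.1). The fits were also run on simulated counts in which few genes changed and no set of fish was shifted as a whole. That run therefore gives no measure of such a shift. Fish numbers pair no samples.

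The 46 lists, 32 of pathways and 14 of cell types, hold 1760 entries, of which 1604 matched a gene row. Members, lists and named genes were chosen with earlier results of these data known. The naming rule took the 10 highest and 10 lowest log2 changes among called genes with a symbol, a mean of at least 4 CPM and no overlap, up to 4 genes per list by p, and 23 genes set by name, and the text describes part of these. A few genes are not reported here. Alternatives were scaling by RLE, by upper quartile or by library size, other filters and thresholds, DESeq2 1.42.0, limma 3.58.1 voom with sample quality weights, 1 fish left out at a time and a fit over all 18 one-year fish. Leaving out fish 189 was added after the data were seen. R was 4.3.3 and Python 3.11.15. Promoter sequences were not analysed here.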

Additional observations from a re-analysis of the deposited data

Results flagged for a closer look

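In 20 cases 1 fish stood apart from the other 3 of its group by Dixon's criterion at 95%, from the gap to its neighbour over the group's range. Chance gives about 1 in 20 groups, and 220 pairs of gene and group were checked besides the marker sums. Fish 163 stood at 18.7 CPM for MYC (ENSDARG00000007241) and 0.985 CPM for aplnra. Fish 165 stood at 20.5 CPM for YPEL3 and 46.7 CPM for mcl1a. Fish 166 stood at 1030.3 CPM for FABP2 and 50.1 CPM for the summed skeletal muscle markers. Fish 167 stood at 13.3 CPM for HSPA2, 60.3 CPM for PTGES3 and 56.9 CPM for krt5. Fish 173 stood at 24.3 CPM for ACSBG2, 3.72 CPM for HSPBP1 and 39.8 CPM for WIPI2. Fish 174 stood at 7.94 CPM for RFC3 and 161 CPM for nop53. Fish 175 stood at 43 CPM for LDHB and 0.68 CPM for krt5. Fish 177 stood at 56.2 CPM for PER3, 1.7 CPM for hsp70.3, 21.6 CPM for igfbp1b and 3.24 CPM for si:dkey-33c14.2.

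The dose effect in fish 163 to 177 differed from that in fish 189 to 202 for 48 of the genes named, by the edgeR test of the difference over 18 fish at an adjusted p of 0.05. Over all genes it did so in 1098 of 17217 (6.38%). Apart from those set by name, the genes were picked by p or log2 change in the 8 fish, whose effect is part of this difference. A larger share than that of all genes was therefore in part set by the choice. The values are log2 differences, fish 163 to 177 minus fish 189 to 202. The effect was more positive in fish 163 to 177 for CALCOCO1, tdo2b, KLHL24, ulk1a, igfbp1b and YPEL3, at 4.89, 4.63, 4.61, 4.17, 4.16 and 3.94 in that order. More positive differences were also found for IGFBP1, IMPDH1, ULK1, SOAT2, znrf2a and PNPLA2, at 3.77, 3.68, 3.63, 3.56, 3.45 and 2.96 in that order. A further set was more positive, with nupr1a, BNIP3, cyp27a1.1, MAP1LC3A, PDK2 and RFC3, at 2.84, 2.66, 2.56, 2.5, 2.49 and 1.70 in that order. Smaller positive differences were those of WIPI2, cpt1ab, creb3l3a, INSR (ENSDARG00000011948) and LRAT, at 1.69, 1.65, 1.6, 1.54 and 1.38 in that order. It was more negative for SST, ACSBG2, hsp70.3, HSP90AA1, HSPA2 and HKDC1, at −8.53, −6.39, −5.52, −5.07, −4.98 and −4.07 in that order. More negative differences were also found for FASN, prdx1, CEBPA, PGD, higd1a and cycsb, at −4.03, −3.81, −3.69, −2.78, −2.52 and −2.07 in that order. A further set was more negative, with DLAT, SLC2A1, flt1, mrps31, HSPBP1 and AHSA1, at −1.95, −1.87, −1.77, −1.48, −1.39 and −1.34 in that order. Smaller negative differences were those of TOMM22, ECSIT, EIF4G1, ETF1, PSMD12 and LARS1, at −1.33, −1.28, −1.25, −0.98, −0.89 and −0.80 in that order. Negative as well were those of NDUFAF1, at −0.65. Without fish 189 none of these differences lost its call, and 20 more of the genes named passed, HSPA5 among them. With 1 of the 8 fish left out at a time, 34 of the 48 passed in all 8 fits. Of the 8 fits, INSR (ENSDARG00000011948), cpt1ab and creb3l3a passed in 0, HKDC1, LRAT and SOAT2 in 1, SST in 2 and ECSIT, LARS1, RFC3 and YPEL3 in 3. The call held for PNPLA2 in 4 and PDK2 and flt1 in 6 of them.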

How the results depend on the processing

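The counts of genes called, higher and lower stayed within 1.5 times their main value under each other scaling, filter, test and the fit over 18 fish, from 4356 to 6102 called, and with 1 fish left out (4270 to 5196 called, 2032 to 2438 higher and 2077 to 2758 lower). A threshold of 0.01 left 3080 genes, 1483 higher and 1597 lower. An absolute log2 change of at least 1 left 2708, with 1436 higher and 1272 lower. The count of genes whose dose effect differed between number series was less stable. It was 2055 with DESeq2, 168 at a threshold of 0.01 and between 518 and 2068 with 1 fish left out, the highest without fish 189. The share with the more positive effect in fish 163 to 177 was 72.0%, against 54.4% with DESeq2 and 60.1% with a mean of at least 1 CPM. It was 62.3% with RLE scaling, 74.4% with upper-quartile scaling and 77.5% with library size alone. Without 1 of the 8 fish it was 54.5% to 61.4%, and without fish 189 it was 64.4%. The cause was not tested. Of 110 genes named, 104 passed, and no sign turned in any alternative. With 1 fish left out, 5 of them lost a call in at least 1 fit (MVK, krt5, si:dkey-33c14.2, CEBPA and FABP2). Under the other scalings, filters, tests and fits 5 did (krt5, si:dkey-33c14.2, FABP2, and, in the fit over 18 fish, ins and PCNA), and HMOX1 and MYC (ENSDARG00000007241) each passed in at least 1. No paired analysis was possible because fish numbers do not pair fish across doses. With 4 fish a group and 1 dose per set of fish, a shift common to a set cannot be separated from dose. Genes below the count filter were not tested.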

Other observations

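Stellate and biliary markers were called at smaller shares than the 34.7% of all genes. LRAT (ENSDARG00000037278), which stores retinol as esters in hepatic stellate cells, stood at 5.32, 9.86, 6.57 and 6.38 CPM at 3.75 nM and at 18.9, 15.4, 24 and 16.3 CPM at 37.5 nM, a rise of 1.41 ± 0.22 (adjusted p = 0.00196). thpo (ENSDARG00000079158), the liver hormone that drives thrombocyte production, rose by 1.93 ± 0.43 (adjusted p = 0.00974). Of the stellate and fibroblast markers, 4 of 19 tested genes rose, 1 fell and 14 missed the threshold (median log2 change 0.00; 2 to 4 rose and 0 to 2 fell over the alternatives), and of the biliary markers, 2 of 13 tested genes rose, 1 fell and 10 missed the threshold (median log2 change 0.26; 0 to 1 fell over the alternatives). The summed biliary markers overlapped between the groups, at 1643 to 2310 CPM and 1893 to 2095 CPM.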
